A study of Mus musculus with 12 samples.

Results

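The comparison set the mature microRNAs (miRNAs) of the ileum of antibiotic-treated mice against those of control mice. It took the 4 libraries whose description names antibiotics and the 4 described as control, which are 8 of the 12 libraries of the series. Every probe with a mouse miRNA name and a normalised signal above 32 in at least 4 of the 12 libraries was tested, which gave 226 of the 599 probes. Of the 566 mouse probes, 340 did not pass that limit on weak signal, and the other 33 probes of the panel name herpesvirus miRNAs. Nearest to the limit, the value reached in at least 4 libraries was 31.5 for miR-1940 and 31.7 for miR-208b, which were left out, and 32.5 for both miR-431 and miR-34b-5p, which were kept.

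All mice were males of the inbred strain NOD/ShiLtJ, in which autoimmune diabetes develops spontaneously, and all were sampled at postnatal day 23. The control group is labelled only as control, and the treated group as "1PAT antibiotics". The agent is not given in the sources used here, nor are its dose and timing. The remaining 4 libraries came from mice given cecal material and entered the model only to estimate the spread. Dams were randomised together with their litters and the litter of each library is unknown. The p-values therefore reflect variation among animals of which some may be littermates. The tissue label reads ileum, whereas the design text names intestinal epithelial cells as the source of the RNA. All libraries carry the same batch label. In bulk RNA, fewer cells of a type and less RNA per cell cannot be told apart.

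A miRNA is a short RNA that is cut from a hairpin precursor and loaded into an Argonaute protein, where it guides the repression of messenger RNAs. Bases 2 to 8 from its 5' end, the seed, dominate the choice of targets, so miRNAs with the same seed are counted as a family. Many miRNA genes lie close together and are made from a common primary transcript. In the gut, miR-192 and miR-194 are abundant in enterocytes, the miR-200 family maintains epithelial identity, miR-143 and miR-145 mark smooth muscle and fibroblasts, and miR-142, miR-150 and miR-223 mark leukocytes.

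No miRNA differed between the groups past an adjusted p of 0.05. With limma and Benjamini-Hochberg adjustment 0 of 226 probes passed, which is 0% of those tested. edgeR and DESeq2 on recovered counts called 0 and 3 probes, or 0% and 1.33%. At an unadjusted p under 0.05 there were 34 probes, or 15.0%, of which 21 had higher signal after antibiotic (9.29%) and 13 lower (5.75%). The values below therefore describe the libraries and carry no call. Single libraries decided which probes came near: without control replicate 4, miR-181c, miR-125b-5p, miR-125a-5p, miR-27b, miR-10a, miR-350, miR-196b and miR-2134 passed (limma adjusted p = 0.0364 to 0.0429). Without control replicate 1, miR-181c (0.0118), miR-1 and miR-2134 (both 0.0439) passed. The miR-2134 probe carries a miRNA name but is on the list of probes for fragments of transfer and ribosomal RNA. Over all tested probes, 120 differences were positive and 106 negative, with a median of 0.01 on the log2 scale. The 24 differences described most closely are the 12 of smallest p in each direction. None of these changed sign under any alternative processing that kept the probe. They were picked for small p in these same data, so their stable sign is no separate support.

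Several features of the libraries bear on these values. Total counts recovered from the signal lay between 120235 and 148297 in the antibiotic libraries and between 169844 and 274302 in the control libraries, so the groups did not overlap in depth (exact two-sided permutation p = 0.0286, the smallest that 4 against 4 libraries can give, and 0.143 adjusted over 5 library measures). With all libraries thinned to the depth of the shallowest, 28 probes had an unadjusted p under 0.05 and 14 had groups apart, against 34 and 19. With log2 depth in the model 30 had such a p, 13 of them higher and 17 lower. Many small differences changed sign in that model, and the main cases are given with the values. The herpesvirus probes, whose targets uninfected mice lack, had a median log2 signal of 3.46 ± 0.223 (SD, n = 4) in control and 3.51 ± 0.287 in antibiotic libraries (exact permutation p = 0.8), and 2 of the 33 separated the groups, both upward, or 6.06%. Control replicate 3 stood apart from the other libraries in some measures. Its mean herpesvirus signal was 27.5 against 11.8 to 17.5 in the other 7 libraries, and 239 mouse probes exceeded 32 there against 201 to 223. Its median herpesvirus signal of 12.6 did not stand apart, with 13.0 in antibiotic replicate 2. Results that rest on control replicate 3 are given with and without it.

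The mature sequences below show the leading miRNAs beside relatives with the same seed, since members of a family share targets and their differences are set side by side in the results. They come from the RefSeq annotation of GRCm38.p6, which held a mature sequence for 155 of the 226 probes. The seed is in capitals and each sequence runs from 5' to 3'.
miR-181c-5p: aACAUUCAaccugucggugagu
miR-181a-5p: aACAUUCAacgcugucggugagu
miR-27b-3p: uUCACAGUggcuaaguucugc
miR-27a-3p: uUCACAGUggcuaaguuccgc
miR-125b-5p: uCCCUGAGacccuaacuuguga
miR-125a-5p: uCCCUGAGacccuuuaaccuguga
miR-10a-5p: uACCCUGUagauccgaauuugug
miR-10b-5p: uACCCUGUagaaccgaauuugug
miR-7a-5p: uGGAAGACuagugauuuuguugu
miR-7b-5p: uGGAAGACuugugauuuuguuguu
miR-497a-5p: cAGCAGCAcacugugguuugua
miR-195a-5p: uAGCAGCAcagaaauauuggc
miR-196b-5p: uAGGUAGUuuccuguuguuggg
miR-196a-5p: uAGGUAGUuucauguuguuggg
miR-21a-5p: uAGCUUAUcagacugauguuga
miR-191-5p: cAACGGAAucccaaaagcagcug
miR-144-3p: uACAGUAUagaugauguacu
Counted base by base from the 5' end over the shorter length, miR-27b-3p and miR-27a-3p differ at 1 position, as do miR-10a-5p and miR-10b-5p, miR-7a-5p and miR-7b-5p, and miR-196b-5p and miR-196a-5p. miR-125b-5p and miR-125a-5p differ at 7 positions, and miR-181c-5p and miR-181a-5p at 11. Both counts are inflated, because bases after an insertion are compared out of step. The lengths are 22 and 24 bases in the miR-125 pair, and 22 and 23 in the miR-181 pair. Apart from 1 added base, miR-181a-5p reads as miR-181c-5p. How well the probes separate the members of any of these pairs is not given in the sources used here.

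The smallest p belonged to miR-181c, whose family is best known for tuning signalling in developing lymphocytes. Its mature form lies at chr8:84178924-84178945 on the minus strand. The signal was 79.5, 56.3, 62.8 and 60.7 in control replicates 1 to 4, and 101, 99.1, 92.3 and 94.5 in antibiotic replicates 1 to 4. All 4 antibiotic libraries lay above all 4 controls, with a log2 difference of 0.58 (SE 0.12, 95% interval 0.32 to 0.84, limma adjusted p = 0.0647). These are weak signals, since each rests on a recovered count of 45 to 94. miR-181a, with the same seed and a far stronger probe, had signals of 1222, 1315, 1279 and 1521 in control and 1456, 1294, 1292 and 1423 in antibiotic libraries. Its groups overlapped, and its difference was 0.04 (95% interval -0.13 to 0.20).

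miR-125b-5p and miR-125a-5p, homologues of the worm heterochronic miRNA lin-4, share 1 seed and had similar differences at high signal. The control values of miR-125b-5p were 2282, 2437, 1979 and 2564, and the antibiotic values 3016, 2771, 2742 and 3184. The groups did not overlap and differed by 0.34 (SE 0.09, 95% interval 0.15 to 0.54, limma adjusted p = 0.0965). miR-125a-5p, at chr17:17830817-17830840 on the plus strand, had 1052, 1182, 936 and 1386 in control and 1666, 1393, 1379 and 1338 in antibiotic libraries. Only control replicate 4 reached into the antibiotic range, and the difference was 0.35 (SE 0.11, limma adjusted p = 0.128). The other arm of the same hairpin, miR-125a-3p, was weaker but also separated the groups, with 61.7 to 80.2 in control and 83.5 to 97.6 in antibiotic libraries (log2 0.31, limma adjusted p = 0.35). It was singled out after its values were seen, because the groups were apart.

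miR-27b, which is made with miR-23b and represses regulators of lipid handling, lies at chr13:63300760-63300780 on the plus strand. It had 99.7, 113, 106 and 133 in control and 169, 148, 133 and 162 in antibiotic libraries. The highest control and the lowest antibiotic library met at 133, and the difference was 0.44 (SE 0.12, 95% interval 0.19 to 0.69, limma adjusted p = 0.0965). miR-27a, which differs from it at 1 base, had a difference of 0.01.

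miR-10a, which lies in the Hoxb cluster at chr11:96317186-96317208 on the plus strand, had 317, 291, 272 and 444 in control and 417, 741, 438 and 402 in antibiotic libraries. The difference of 0.57 (SE 0.18, limma adjusted p = 0.129) leaned on antibiotic replicate 2, without which it was 0.36. The related miR-10b had its lowest value of 221 in that same library, against 292 to 298 in the other antibiotic libraries and 285 to 341 in control libraries, and its difference was -0.15.

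Among the strongly expressed miRNAs, miR-21, which is induced in inflamed and injured tissue, was 2516, 2931, 2959 and 2349 in control and 3087, 3063, 3211 and 3484 in antibiotic libraries. The groups were apart by a small margin, and the difference was 0.26 (SE 0.09, 95% interval 0.07 to 0.45, limma adjusted p = 0.131). Among other miRNAs tied to inflammation, the difference was 0.03 for miR-146a (95% interval -0.24 to 0.31), -0.08 for miR-155 (-0.36 to 0.19) and 0.12 for miR-146b. The list of these 4 had 3 positive and 1 negative difference, with a median of 0.08, or -0.03 with log2 depth in the model.

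miR-191, which is widely expressed, lies at chr9:108568325-108568347 on the plus strand. Its control values of 474, 464, 479 and 436 all lay below its antibiotic values of 543, 526, 613 and 531, with a difference of 0.25 (SE 0.08, limma adjusted p = 0.119). miR-425, which is made from the same transcript on chromosome 9, had 412, 425, 452 and 385 in control and 414, 406, 465 and 468 in antibiotic libraries, a difference of 0.07.

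miR-7a, a miRNA of endocrine cells in islets and gut, was 188, 173, 179 and 186 in control and 256, 190, 240 and 224 in antibiotic libraries. The groups were only just apart, with 188 as the highest control and 190 as the lowest antibiotic value, and differed by 0.32 (SE 0.10, limma adjusted p = 0.129). miR-7b, with the same seed, had a difference of -0.20 from a weak signal of 45.8 to 85.2 over the 8 libraries, and the endocrine miRNA miR-375 had one of 0.07 (95% interval -0.18 to 0.31).

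The erythroid miRNA miR-144, at chr11:78073047-78073066 on the plus strand, was 180, 173, 191 and 202 in control and 216, 248, 260 and 233 in antibiotic libraries. The groups were apart, with a difference of 0.36 (SE 0.12, limma adjusted p = 0.131). Its partner in the same transcript, miR-451, had 902, 1145, 1000 and 1112 in control and 1211, 911, 896 and 992 in antibiotic libraries. Its groups overlapped throughout, at -0.06 (95% interval -0.32 to 0.21), or 0.07 with quantile normalisation. In the main fit these erythroid miRNAs of 1 locus thus had differences of opposite sign, but that of miR-451 was near 0. The other tested erythroid probe, miR-486, was at 0.14, so the list had 2 positive differences and 1 negative.

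The weaker leading probes on the positive side were miR-1968, a probe that reads miR-466a-3p together with miR-466b-3-3p, and miR-497. miR-1968 had 61.7, 75.5, 58.6 and 45.8 in control and 87.0, 104, 90.4 and 110 in antibiotic libraries (log2 0.70, SE 0.17, limma adjusted p = 0.0781). The miR-466 probe had 22.8, 18.1, 32.1 and 22.9 against 50.4, 50.3, 32.7 and 47.2 (log2 0.89, SE 0.27, limma adjusted p = 0.119). Control replicate 3 and antibiotic replicate 3 nearly met there, and the recovered counts behind the 8 values were only 17 to 31. miR-497, a relative of miR-15 and miR-16, had 30.4, 34.0, 37.7 and 32.1 against 62.6, 40.6, 48.1 and 45.7 (log2 0.53, SE 0.16, limma adjusted p = 0.119). With log2 depth in the model, the difference of miR-497 was 0.29.

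**Figure D1:**
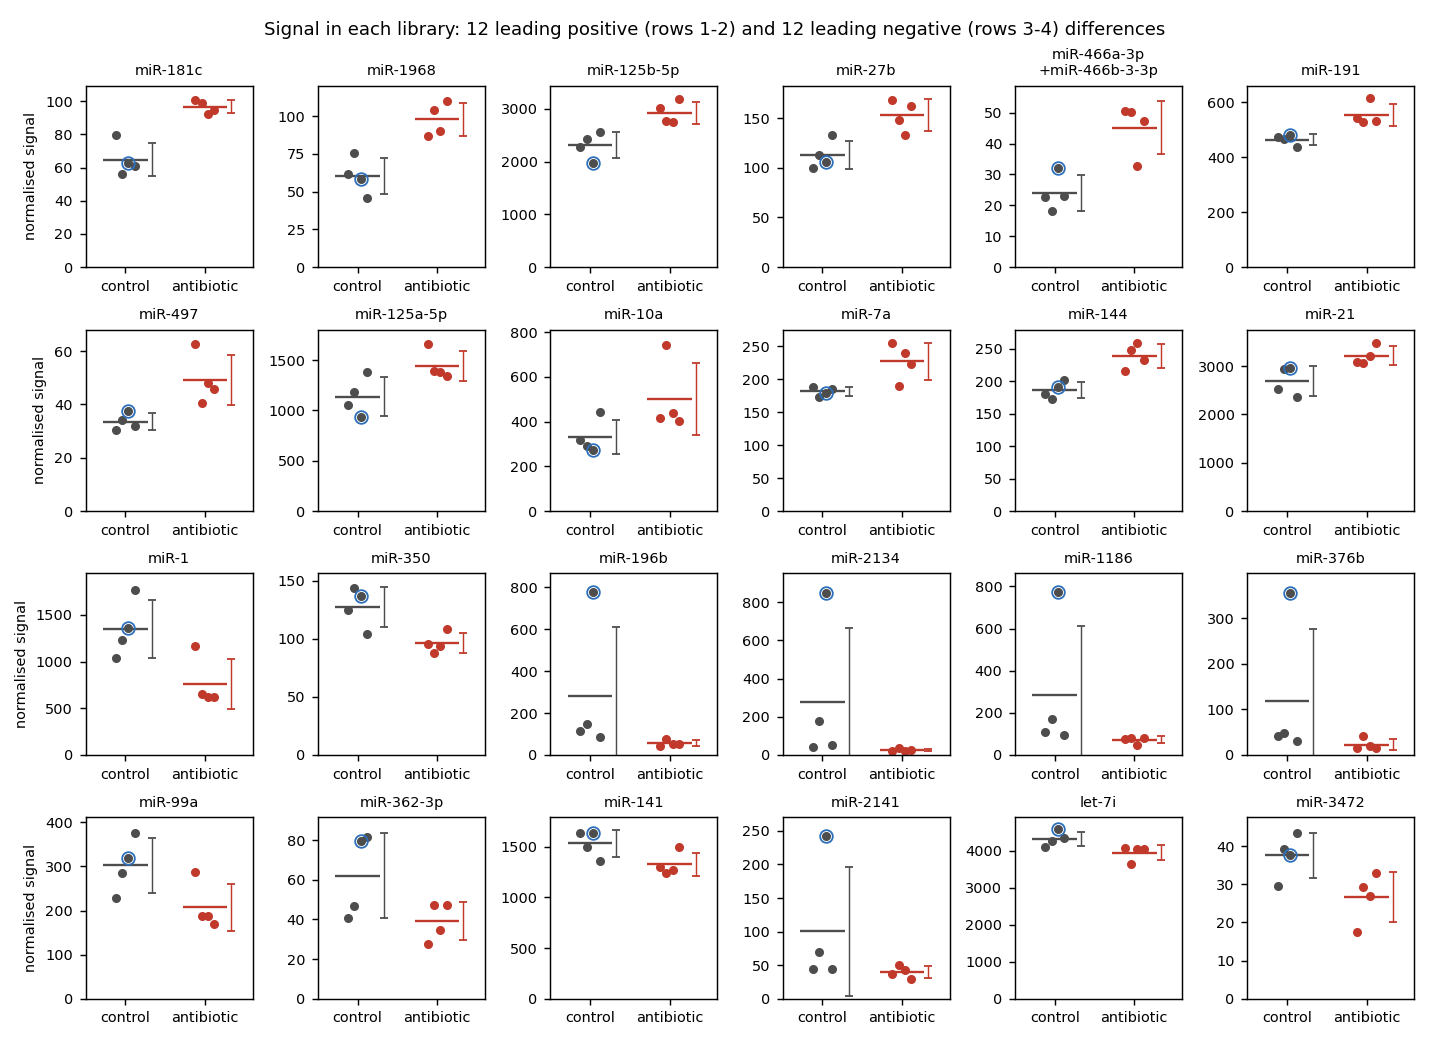
Normalised signal (y axis, from 0) of the 24 miRNA probes of smallest p in each of the 4 control (grey) and 4 antibiotic (red) libraries. Points are libraries, the horizontal bar is the group mean, the error bar is the SD (n = 4, cut at 0 where it would go below), and the blue ring marks control replicate 3. miR-181c and miR-191 show groups that are apart with little spread, while in the panels of miR-196b, miR-2134, miR-1186, miR-376b and miR-2141 the ringed library carries most of the control mean.

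On the negative side the smallest p belonged to miR-1, the miRNA of striated muscle that promotes muscle differentiation. It had 1043, 1231, 1359 and 1771 in control and 1162, 651, 615 and 624 in antibiotic libraries. The other 3 antibiotic libraries lay below every control, and antibiotic replicate 1 lay within the control range. The difference was -0.85 (SE 0.21, 95% interval -1.29 to -0.41, limma adjusted p = 0.0781). Leaving out antibiotic replicate 1 gave -1.07 with a limma adjusted p of 0.00541, and leaving out control replicate 4 gave -0.71.

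The other striated muscle markers measured were miR-133a and miR-499. miR-133a, which is made from the same loci, had 216, 156, 204 and 165 in control and 193, 203, 156 and 206 in antibiotic libraries, with a difference of 0.04 (95% interval -0.24 to 0.32) that was -0.04 after thinning and without control replicate 2, and -0.01 without control replicate 4 and without antibiotic replicate 4. miR-499, from a cardiac and slow-muscle myosin gene, had 16.9 to 44.7 in control and 32.5 to 56.7 in antibiotic libraries, at 0.62. Of the 7 striated muscle probes on the panel 3 passed the signal limit, with 2 positive and 1 negative difference, and their summed signal was 1275 to 1980 in control and 827 to 1390 in antibiotic libraries. The summed signal of the smooth muscle and fibroblast miRNAs was 28167 to 35470 in control and 31953 to 34387 in antibiotic libraries, with 1 positive and 3 negative differences. The part of muscle content in the difference of miR-1 was not tested.

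miR-350 had 125.1, 143, 137 and 104 in control and 95.7, 87.7, 94.2 and 109 in antibiotic libraries, with a difference of -0.39 (SE 0.11, limma adjusted p = 0.119). The groups overlapped only through control replicate 4 and antibiotic replicate 4. miR-99a, which lies within the same region of chromosome 16 as let-7c at chr16:77598940-77598961, had 229, 286, 318 and 377 in control and 287, 187, 187 and 170 in antibiotic libraries, at -0.55 (SE 0.20, limma adjusted p = 0.152). Antibiotic replicate 1 again lay with the controls, as it did for miR-1. miR-99b and miR-100, which have the seed of miR-99a, had differences of 0.09 and 0.11, or -0.23 and -0.09 with log2 depth in the model.

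A pair of epithelial or broadly expressed miRNAs with strong signal were also on the negative side. miR-141, a member of the miR-200 family that keeps epithelial cells from losing their identity, had 1638, 1492, 1636 and 1359 in control and 1303, 1238, 1269 and 1496 in antibiotic libraries, at -0.21 (SE 0.08, limma adjusted p = 0.184). let-7i had 4104, 4263, 4577 and 4335 in control and 4065, 3638, 4036 and 4051 in antibiotic libraries. Its groups were just apart, at -0.13 (SE 0.06, limma adjusted p = 0.304). The remaining leading negative probes were miR-362-3p at -0.62 and miR-3472 at -0.50, both weak and with overlapping groups.

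The differences of 5 probes rested largely on control replicate 3. Its signal for miR-196b was 776, against 113, 149 and 84.8 in the other controls and 41.7, 78.0, 53.8 and 52.0 in antibiotic libraries. miR-196b lies in the Hoxa cluster and belongs to the miRNAs that mark position along the body axis. For miR-2134 it was 849, against 38.9, 176 and 50.4 in the other controls and 21.2 to 35.7 in antibiotic libraries. For miR-1186 it was 772, against 92.8 to 169 and 46.2 to 81.9, and for miR-376b, which passed the signal limit only with the control libraries, it was 356, against 30.9 to 48.9 and 14.2 to 40.6. For miR-2141 it was 243, against 44.0 to 70.1 and 29.9 to 50.3. These were the tested probes whose signal in control replicate 3 exceeded that in any other of the 12 libraries more than 2 times, by 3.46 to 7.28 times. Of them, miR-2134 and miR-2141 are on the list of probes for fragments of transfer and ribosomal RNA. The 9 tested probes of that list had 5 positive and 4 negative differences, with a median of 0.001.

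Leaving out that library reduced all 5 differences without turning any. miR-196b went from -1.72 to -1.02 (limma adjusted p = 0.119 and 0.0632), miR-2134 from -2.34 to -1.44 (0.119 and 0.0809), miR-1186 from -1.44 to -0.77 (0.131 and 0.0820), miR-376b from -1.70 to -0.91 (0.147 and 0.166) and miR-2141 from -0.95 to -0.39 (0.298 and 0.395). The log2 differences of miR-1 and miR-181c were -0.84 and 0.57 without it. miR-196a, which differs from miR-196b at 1 base, was 243, 270, 257 and 218 in control and 304, 274, 281 and 257 in antibiotic libraries, so control replicate 3 was not high there, and its difference was 0.18.

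**Figure D2:**
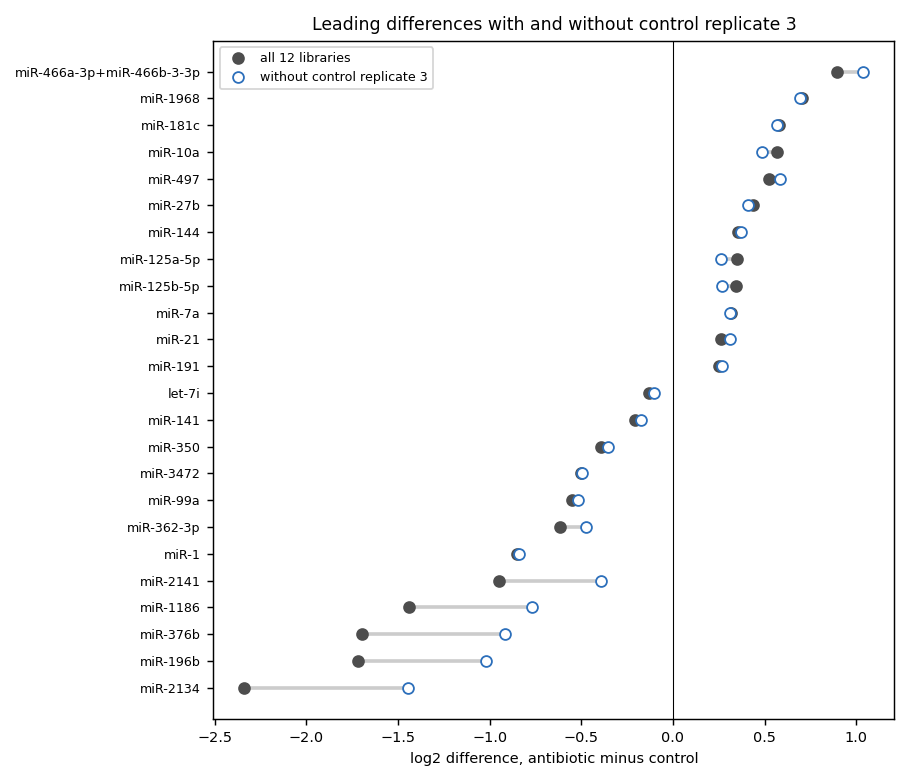
Log2 difference (x axis, antibiotic minus control) of the 24 leading probes with all 12 libraries (filled) and without control replicate 3 (open). The open points of miR-2134, miR-196b, miR-376b, miR-1186 and miR-2141 lie far nearer 0 (miR-2134 at -1.44 in place of -2.34), while most other pairs of points nearly coincide.

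Without a model, 19 of the 226 probes, or 8.41%, had groups that did not overlap. In 14 of them (6.19%) all antibiotic libraries lay above all controls, and in 5 (2.21%) all lay below. The higher ones were miR-181c, miR-1968, miR-125b-5p, miR-125a-3p, the miR-466 probe, miR-191, miR-497, miR-7a, miR-144, miR-21, miR-490, miR-1224, miR-190 and miR-1965. The last 4 were named for this separation after their values were seen. miR-490 had 16.9 to 32.9 in control and 36.5 to 50.3 in antibiotic libraries (log2 0.69, limma adjusted p = 0.147). It and the miR-466 probe passed the signal limit only with the antibiotic libraries, where they were high, so the limit itself favoured their separation. miR-190 had 35.5 to 39.1 against 40.4 to 71.3 (0.51, limma adjusted p = 0.233). The lower ones were miR-196b, miR-2134, miR-1186, let-7i and miR-98, the last a let-7 relative with 479 to 568 in control and 456 to 477 in antibiotic libraries (-0.14, limma adjusted p = 0.35). Of the herpesvirus probes 6.06% were apart.

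**Figure D3:**
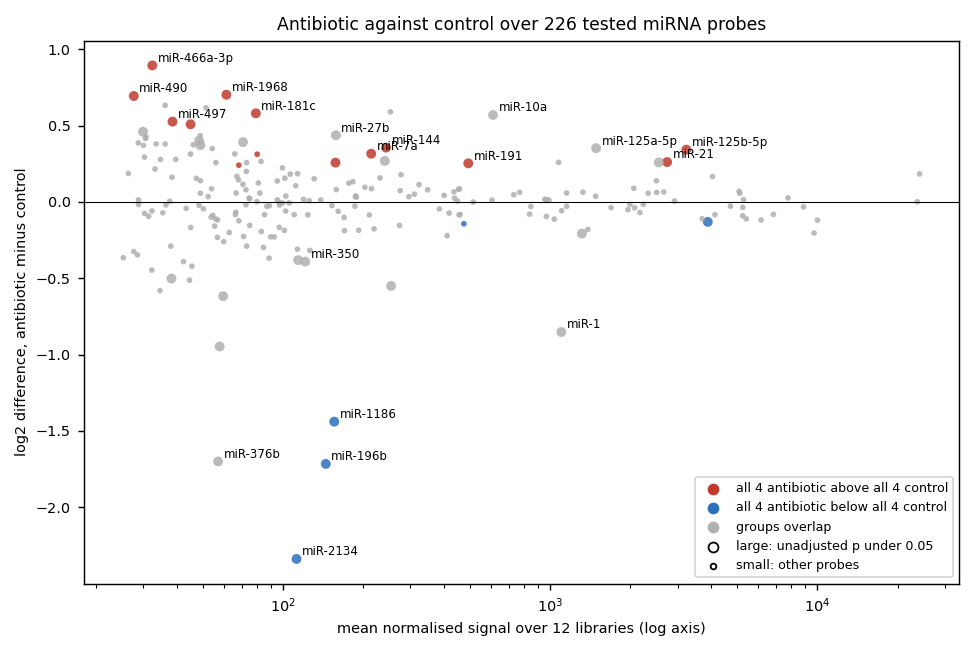
Log2 difference (y axis, antibiotic minus control) of the 226 tested probes against their mean normalised signal over 12 libraries (log x axis). Red and blue points are probes whose groups did not overlap, 14 higher and 5 lower, and large points have an unadjusted p under 0.05. The spread of the differences narrows to the right, from an SD of 0.43 under a signal of 64 to 0.18 above 512.

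The spread of the differences depended on the level of the signal. Its SD was 0.43 over the 65 probes with a mean signal under 64, 0.37 over the 57 probes from 64 to 128, 0.38 over the 48 from 128 to 512 and 0.18 over the 56 above 512. The median SE fell in the same order, from 0.22 through 0.15 and 0.11 to 0.08, so smaller differences were resolvable for strong miRNAs. Among the 56 strongest, 28 differences were positive and 28 negative.

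The markers of epithelial, vascular and immune cells were read as a check of the makeup of the samples, and those of all these cell types were detected. miR-194 was 16796, 11584, 13033 and 7936 in control and 9404, 9147, 11282 and 11777 in antibiotic libraries, a difference of -0.20 (95% interval -0.59 to 0.18). That difference was 0.10 with log2 depth in the model and 0.09 with quantile normalisation. The control values of miR-194 spanned the whole antibiotic range. miR-192, from the same locus, had a difference of -0.03 (-0.24 to 0.18). Of the 5 miR-200 family members 3 were positive and 2 negative, with a median of 0.06 against 0.01 over all probes, or -0.02 with log2 depth in the model. Their summed signal was 16744 to 19423 in control and 17959 to 19986 in antibiotic libraries.

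miR-126-3p, the miRNA of endothelial cells, differed by -0.11 (95% interval -0.27 to 0.05). The 5 leukocyte probes had 1 positive and 4 negative differences, with a median of -0.08, and summed to 1450 to 2644 in control and 1781 to 2079 in antibiotic libraries. The lymphocyte miRNA miR-150 was steady at 443 to 462 in control and 404 to 444 in antibiotic libraries. miR-223, the miRNA of neutrophils and monocytes, varied widely within groups, with 219, 515, 673 and 448 in control and 327, 335, 810 and 305 in antibiotic libraries. Its difference of -0.08 had a 95% interval of -0.96 to 0.80. A change of either sign could not be resolved. The 8 neural probes divided evenly, 4 positive and 4 negative, with a median of 0.05. Of the probes for miRNAs of liver and exocrine pancreas 2 of 4 passed the signal limit, and their sum was 94.6 to 121 in control and 88.5 to 112 in antibiotic libraries.

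**Figure D4:**
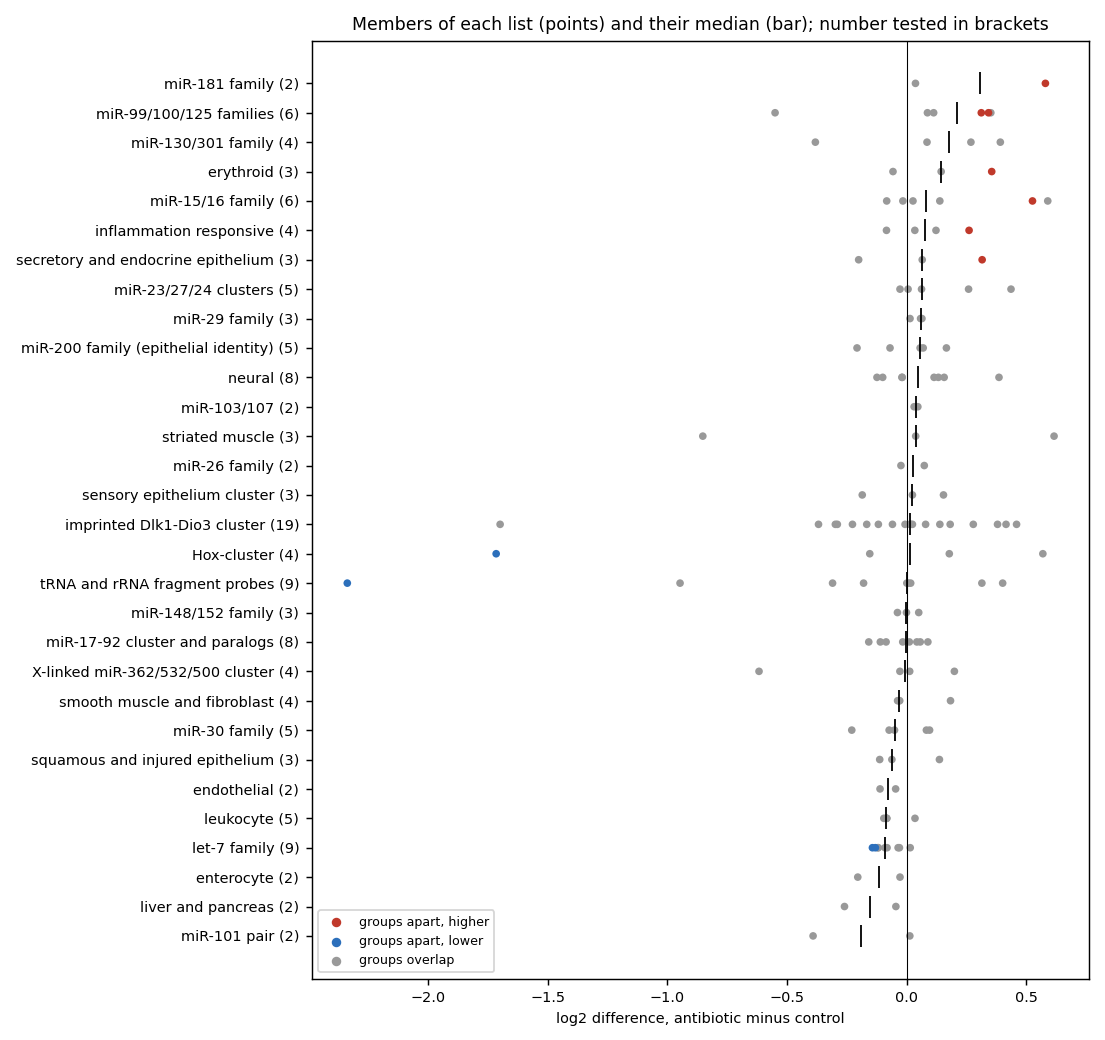
Log2 difference (x axis, antibiotic minus control) of each tested member (points) of the lists of cell type markers, families and clusters with at least 2 tested members, with the list median as a bar and the number tested in brackets. Red and blue points are probes whose groups were apart. The let-7 family lies slightly left of 0 with a median of -0.09, and the miR-99, miR-100 and miR-125 families slightly right with a median of 0.21.

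Families sharing a seed were compared by the signs of their members. Of 21 families with at least 2 tested members and a known sequence, holding 62 probes, 11 had differences of 1 sign, and 6 with log2 depth in the model. Many were pairs, and the share expected by chance was not tested. Members without a known sequence were not counted. The miR-30 seed thus counted as 1 sign with 3 negative probes, while the 5 tested miR-30 members had 2 positive and 3 negative differences. The seed GAGGUAG of let-7 was the most populated. It had 10 probes, of which 9 were negative, with a median of -0.10, and the whole range was -0.15 to 0.02. Of the 9 let-7 family members on the list 2 had groups that were apart, both lower, against 2.21% lower over all probes. The 6 probes with the miR-15/16 seed AGCAGCA ran from -0.08 for miR-195 to 0.59 for miR-322, with 4 positive. The 3 probes with the seed AAUACUG (miR-200b, miR-200c and miR-429) were all positive, at 0.06 to 0.17, and both with the seed AACACUG (miR-141 and miR-200a) were negative. With log2 depth in the model miR-200b was at -0.02 and miR-429 at -0.06, and miR-200b was at -0.00 without control replicate 4. miR-200a was at 0.02 with log2 depth in the model, so neither seed kept 1 sign in it. The 3 members of the miR-29 family, which restrains collagen genes, lay between 0.01 and 0.06, with a median of -0.01 once depth was in the model, and the miR-17-92 cluster with its paralogs, which promotes proliferation, had 4 positive and 4 negative members with a median of -0.00.

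The miR-99, miR-100 and miR-125 families had the largest shift in median among the lists with at least 3 tested members, 0.21 over 6 probes with 5 positive, or 0.12 with log2 depth in the model. Their summed signal was 3811 to 4881 in control and 4903 to 5614 in antibiotic libraries, and these ranges do not overlap. Most of that signal came from miR-125b-5p and miR-125a-5p, which were already leading probes, so the sum is not a separate observation. The sum of the list tied to inflammation, which holds miR-21, was also apart (2927 to 3572 in control, 3599 to 4062 in antibiotic libraries). The sums of all other lists overlapped. Among single probes, 8.41% were apart in either direction. The 4 probes of the miR-130 and miR-301 family, which targets growth-factor signalling, had a median of 0.18, with 2 probes at an unadjusted p under 0.05 on the positive side and 1 on the negative, against 9.29% and 5.75% over all probes. Its median was -0.03 with log2 depth in the model. The 4 Hox-cluster miRNAs ran from -1.72 for miR-196b to 0.57 for miR-10a. The 19 tested members of the imprinted Dlk1-Dio3 cluster, which is active in fetal and young tissue, divided into 10 positive and 9 negative, with a median of 0.01. Of the positive members, miR-431 at 0.46 and miR-433 at 0.42 passed the signal limit only with the antibiotic libraries, where their means were higher. miR-431 was also among the 21 probes higher at an unadjusted p under 0.05. Of the negative members, miR-376b at -1.70 passed only with the control libraries.

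miRNA genes that lie close together were compared next, because they can share a primary transcript. Hairpins were located for 185 of the 226 tested probes. Among these 185, probes whose hairpins lie within 10000 bases on the same strand formed 31 groups with 80 probes. Tested probes without a located hairpin are missing, among them miR-99b, miR-15a, miR-143, miR-145, miR-1 and miR-133a. Of the 31 groups, 11 had differences of 1 sign, and 9 with log2 depth in the model. The groups of miR-340, miR-423 and miR-199a hold only the 2 arms of 1 hairpin. The miR-199a probes form a group on chromosome 1 and again on chromosome 9. Those of miR-199a and miR-423 were among the groups of 1 sign. Probes read from several loci, such as miR-29b and let-7c, also entered more than 1 group. On chromosome 16, miR-130b had 109, 96.7, 138 and 137 in control and 69.6, 120, 76.9 and 107.1 in antibiotic libraries (log2 -0.38). Its neighbour miR-301b had 41.4, 35.1, 43.3 and 42.4 against 55.7, 60.1, 40.4 and 59.8 (0.39), so this pair had differences of opposite sign and similar size. On chromosome 11, miR-497 at 0.53 stood beside miR-195 at -0.08. With log2 depth in the model these were 0.29 and 0.25. On chromosome 13 miR-27b at 0.44 and miR-23b at 0.26 stood beside miR-24 at -0.03, but miR-24 is also made on chromosome 8 and its probe reads both sources. miR-23b was at -0.25 with log2 depth in the model.

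On chromosome 17, the hairpin of miR-125a, with 0.35 and 0.31 for its arms, stood beside let-7e at -0.03. The mature miR-99b, at chr17:17830194-17830215 on the same strand, lies beside them but is outside the group. Its difference was 0.09, or -0.23 with log2 depth in the model. On chromosome 6, miR-141 at -0.21 stood beside miR-200c, which had 4507, 4314, 4088 and 3721 in control and 4550, 4253, 5069 and 4785 in antibiotic libraries (0.17). On the X chromosome, miR-362-3p at -0.62 came from the same hairpin as miR-362-5p at 0.20. miR-322, also on the X chromosome, had 93.8, 74.4, 124 and 200 in control and 146, 312, 160 and 124 in antibiotic libraries (0.59, limma adjusted p = 0.34), with overlapping groups, and its neighbour miR-450a-5p was at -0.01. None of these contrasts between neighbours was tested as a difference of its own.

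**Figure D5:**
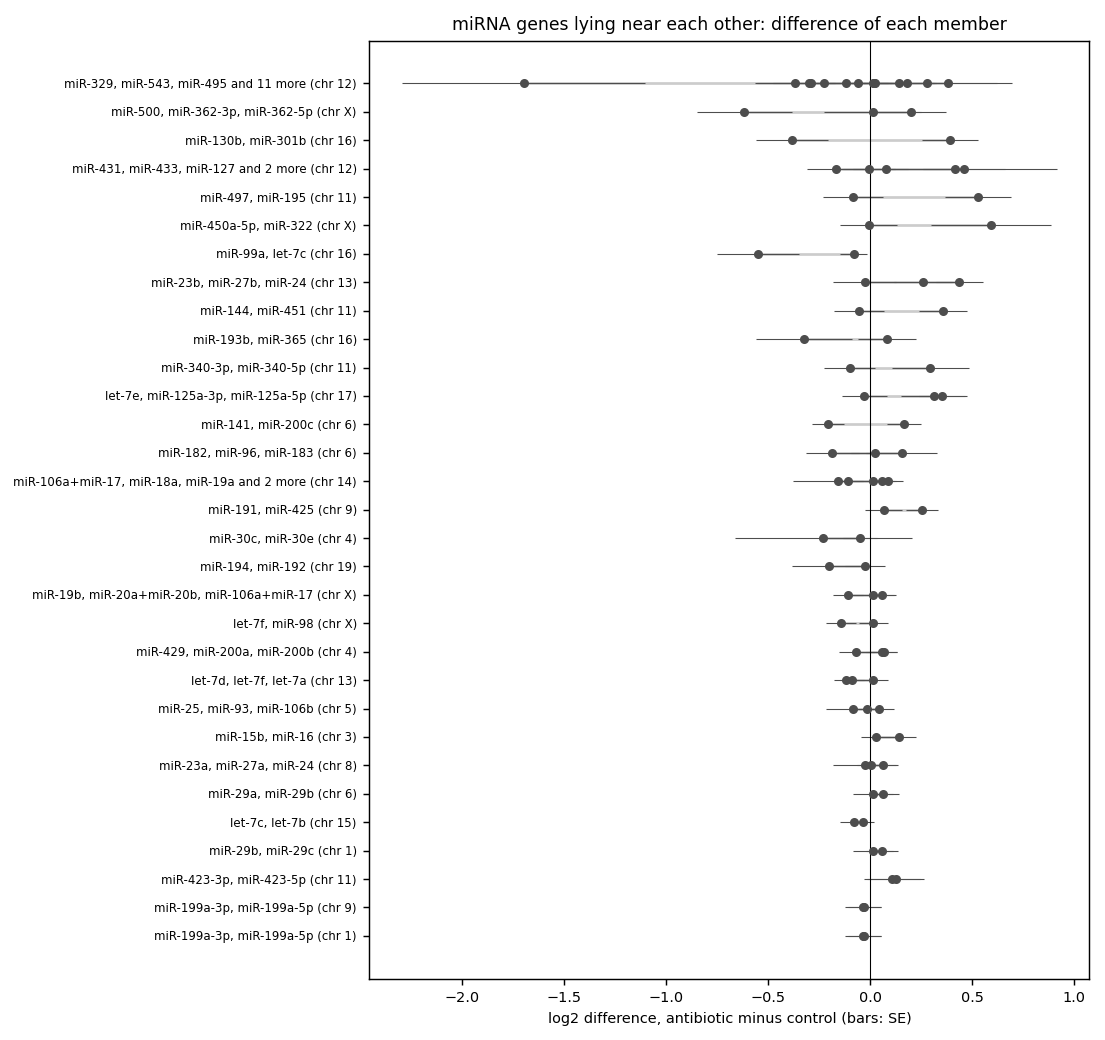
Log2 difference (x axis, antibiotic minus control) with its SE for each member of the 31 groups of neighbouring miRNA genes, ordered by the range within the group. The widest is the group of 14 genes on chromosome 12 that holds miR-376b at -1.70, and the miR-130b and miR-301b pair straddles 0.

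The means of some of the leading miRNAs in the 4 libraries from mice given cecal material are set beside the other groups as levels, with no test. For miR-181c the mean signal was 64.8, 96.7 and 75.9 in control, antibiotic and cecal transfer libraries. miR-1 had 1351, 763 and 1191, and miR-1968 had 60.4, 97.9 and 25.8. miR-125b-5p had 2316, 2928 and 4472, and miR-10a had 331, 500 and 1004. For miR-1 and miR-181c the cecal transfer mean lay between the other means, for miR-125b-5p and miR-10a it lay above both, and for miR-1968 below both. The labels do not say whether these mice had also received the antibiotic.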

How the data were processed

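RNA from a column kit was measured with the NanoString nCounter mouse miRNA assay, which counts ligated, tagged miRNAs by reporter barcode without amplification, per the labels' protocols. The authors deposited normalised signal for 599 probes in 12 libraries. The scaling and its software are not stated in those sources. Each deposited value equalled a whole count times 1 factor per library (the largest deviation was 8.77e-05 of a count, and 100% of values were whole within 1e-04), so the count behind each value was recovered, although raw counts were not the table's unit. The sums over the 100 most abundant probes were nearly equal in all libraries, so totals of signal carry no information on the amount of miRNA. Depth was 120235 to 274302 recovered counts in the 8 libraries compared, and the number of libraries limits the precision of strong probes.

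Signal was transformed to log2(value + 1), which understates the change of weak probes. Mouse probes above 32 in at least 4 of 12 libraries were fitted with limma 3.58.1 in R 4.3.3 in 1 model over the 3 groups with a mean-variance trend, and the antibiotic minus control contrast was adjusted by the Benjamini-Hochberg method over 226 probes at 0.05. SDs are between libraries (n = 4), and intervals are 95% intervals of the moderated test. Single values per library were compared with exact permutation tests. The script was tested on simulated data.

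The members, lists and comparisons were chosen with earlier results of these data known. The named probes were the 12 of smallest p in each direction, the 10 most abundant, and up to 3 of highest mean level in each of 32 lists, 101 in all, plus those stated as singled out. Other miRNAs are named as seed relatives, genomic neighbours or list members of these, after their values were seen. Lists were matched by name, disregarding arms and stars, and are described by counts and medians. Loci and mature sequences came from RefSeq for 185 and 155 of the 226 probes, after older probe names were assigned an arm by hand. Alternatives were other sample sets, centring, quantile normalisation, pseudocount, filters, background subtraction, depth as a covariate, thinning, edgeR 4.0.16 and DESeq2 1.42.0 on recovered counts, each library left out, and, added after seeing the data, removal of the 5 probes high in control replicate 3.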

Additional observations from a re-analysis of the deposited data

Results flagged for a closer look

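In 14 of 202 group checks on the named probes, 1 library lay far from the other 3 of its group, and chance alone flags about 1 in 20 such checks. In the antibiotic group, replicate 1 was high for miR-1 at 1162, with 651 as the nearest value. Replicate 2 was high for miR-10a at 740.6 (nearest 438) and low for miR-10b at 220.9 (292), let-7i at 3638 (4036) and miR-221 at 21.11 (32.7). Replicate 3 was high for miR-223 at 809.6 (335) and let-7c at 7111 (6585), and low for the miR-466 probe at 32.69 (47.2) and miR-1186 at 46.15 (76.5). Replicate 4 was low for miR-31 at 133.8 (160).

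In the control group, replicate 4 was high for let-7f at 6240 (nearest 5218) and low for miR-148a at 1726 (2276). Replicate 3 was high for miR-27a at 2900 (2655) and low for miR-30a at 406.3 (432). The high values of control replicate 3 for miR-196b and its companions did not pass this limit and are described with the results. The limit weighs the gap against the range on the log2 scale and not the size of the gap. For miR-196b the signal was 776 against 149 in the next highest library. The cause of these single-library values was not tested.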

How the results depend on the processing

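With the main processing 0 probes passed. Quantile normalisation gave 2 (miR-1 and miR-181c) and DESeq2 gave 3 (miR-1, miR-196b and miR-2134), while edgeR, with 32 at an unadjusted p under 0.05, gave 0. Leaving out 1 library gave 0 to 8, with 8 without control replicate 4 (miR-10a, miR-125a-5p, miR-125b-5p, miR-181c, miR-196b, miR-2134, miR-27b and miR-350), 3 without control replicate 1 (miR-1, miR-181c and miR-2134) and 1 without antibiotic replicate 1 (miR-1). The 34 probes at an unadjusted p under 0.05 became 53 without a filter and 19 with a filter of 100, and 30 to 39 with 1 library left out. The 19 probes with groups apart became 30 and 10 under these filters, which test 566 and 132 probes, and 19 to 31 with 1 library left out.

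The split into higher and lower at an unadjusted p under 0.05 was 21 and 13, against 34 and 12 with background subtracted, and 13 and 17 with log2 depth as a covariate. The covariate raised the standard errors and moved miR-181c to 0.76 (limma adjusted p = 0.147), miR-196b to -2.95, miR-2134 to -4.03 and miR-2141 to -2.22. Without the 5 probes high in control replicate 3, 0 of 221 passed, 29 had an unadjusted p under 0.05 and 16 had groups apart. The herpesvirus difference of 0.05 ranged from -0.05 to 0.18 with 1 library left out, and was -0.0211 without control replicate 2 and -0.0508 without antibiotic replicate 2. The 24 leading probes, picked for small p, kept their sign in every alternative that held them. Of the other 77 named probes 52 changed sign somewhere, none with a difference above 0.26. Of the 30 list medians, 10 moved by more than the spread and 15 changed sign with depth as a covariate, and over all alternatives 18 values of the medians moved that far. The medians of the leukocyte list (-0.08) and the let-7 family (-0.09) went to -0.26 and -0.16 with the covariate, and that of the secretory and endocrine list from 0.07 to -0.15. miR-23b went from 0.26 to -0.25. Thinning gave 28 probes at an unadjusted p under 0.05 and 14 with groups apart. The causes were not tested. No paired analysis was possible because the labels give no replicate numbers that link control and antibiotic animals.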
